A study of Mus musculus with 59 samples.

Results

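Among the probes of a mouse array, 45 gave lower ratios in melanocytes exposed to agouti signaling protein (ASP) on each of days 1, 2, 3 and 4, and small ratios late under α-melanocyte stimulating hormone (α-MSH). They were chosen by these ratios. For each drug and time, M is the log2 ratio of treated to untreated RNA, centred on the median of its array and averaged over both dye orientations. Members have an M of -0.5 or less on each of the 4 ASP days, and the mean of their M at 3 d and 4 d of α-MSH lies within 0.4 of 0. They also have a value on all 59 arrays, which holds for 18694 of the 38591 probes in the table, called complete probes below. M at ASP 1 d to 4 d and at α-MSH 3 d and 4 d is therefore given as a description, with no test. At the other times, ASP 3 h and α-MSH 3 h, 1 d and 2 d, the choice asked only that a value be present, and these times were tested. The dye effect and spread used in the tests were estimated with the days of the choice included.

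The cells were melan-a, an immortalised pigmented melanocyte line of the C57BL6 strain, and the same line left untreated supplied the partner RNA on every 2-colour array. They received recombinant murine ASP at 10 nM or α-MSH at 100 nM for 3 h, 1 d, 2 d, 3 d or 4 d. Each of these 10 groups has 3 biological replicates, each hybridised in both dye orientations. The exception is ASP 2 d, which lacks 1 array with treated RNA in Cy5. Which arrays form a replicate is not labelled, so values by replicate rest on pairs formed from repeat or database numbers. The lone array of ASP 2 d was thereby taken as replicate 3, and pairing by title number would leave another array alone. Over the complete probes the estimated correlation between the arrays of a pair was -0.084, beyond group and dye effects. The values thus give the pairs no backing, and spreads over replicates carry this limit. A single cell line, 1 dose of each ligand and doses that differ between the ligands limit the comparison of the drugs. By database number, the ASP arrays also form a run of their own, apart from those of α-MSH, so drug and run cannot be told apart.

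α-MSH binds the melanocortin receptor of melanocytes and raises cyclic AMP, which turns on the transcription factor that drives pigment enzymes and so the making of dark eumelanin. ASP binds the same receptor, blocks the hormone and lowers the receptor's own signalling. In the skin it is the paracrine signal that switches hair melanocytes to yellow pheomelanin. The probes carry numbers only and were not matched to genes here, so neither the roles of the members nor the melanocyte markers of the cells could be examined, and the direction of the ratio, treated over untreated, is the likely reading of the design text.

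The arrays held values for between 22218 and 38371 probes, the fewest on an array of ASP 3 d and the most on one of α-MSH 3 h. On most arrays the median ratio turned sign with the dye. Centring sets each array's median to 0, and the average over both orientations balances the dye effects of single probes. The Cy5 array of ASP 1 d replicate 1 and that of α-MSH 3 d replicate 3 had the lowest deposited medians, -1.44 and -0.92, and both are treated beside the results they touch. In the members' median the first of them was far from the other arrays of its group by Dixon's test, and the second was not. Precision is limited by how few arrays there were, with a median standard error of 0.217 for a member's mean at 1 time.

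The ASP criterion alone was met by 89 complete probes, 0.476% of them. Of these, 45 also met the α-MSH criterion and 44 did not, and all 44 lay at or above 0.4 under late α-MSH, with 0 at or below -0.4. With the rule's centring, day 1 was the narrowest step: 195 complete probes had an M of -0.5 or less there (1.04%). On days 2, 3 and 4 there were 792 (4.24%), 962 (5.15%) and 666 (3.56%). These shares are the background of the rule, and nothing about the members is read from them. Probes raised by the mirrored rule numbered 276, against the 45 lowered ones. That balance depended on the centring, and with arrays centred on the complete probes it was 169 raised against 87 lowered. With the rule's centring the complete probes had a median M of 0.13 at 1 d, which bears on the count of that day.

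The members stood close to 0 after 3 h of ASP and well below it from 1 d on. Their median M was 0.13 at 3 h and then -0.66, -0.93, -1.11 and -0.94 on days 1 to 4. The median of the complete probes was 0.03, 0.13, -0.03, 0.00 and 0.03 at the same times. Over the 4 days the mean M of a member had a median of -0.93, which is 1.90-fold lower than in untreated cells, and ranged from -1.40 to -0.62. A mean of -1 or less was reached by 18 of the 45, and 15 had an M of -1 or less at each of 2, 3 and 4 d. In bulk RNA, fewer cells with a transcript and less of it per cell cannot be told apart.

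**Figure D1:**
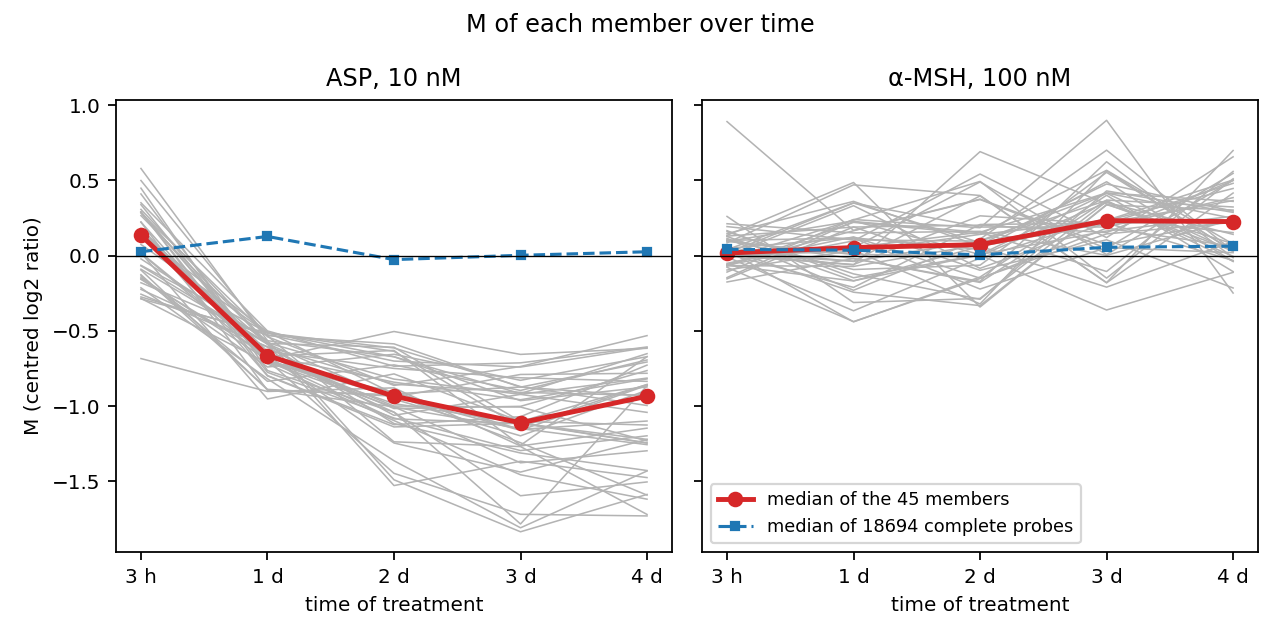
M of the 45 members (grey lines), their median (red) and the median of the 18694 complete probes (blue, dashed) against time under ASP (left) and α-MSH (right), as centred log2 ratios on 1 scale. The members' median goes from 0.13 at 3 h to -1.11 at 3 d of ASP and stays between 0.02 and 0.23 under α-MSH.

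Most members reached their lowest value late. The lowest of the 4 ASP days was 3 d in 22 members, 4 d in 15, 2 d in 7 and 1 d in 1. M weighs the incomplete group of 2 d differently from the mean over replicates, by which the counts for days 1 to 4 were 1, 0, 27 and 17. With arrays centred on the complete probes, the counts by M were 3, 3, 22 and 17. M was lower at 2 d than at 1 d in 39 members, lower at 3 d than at 2 d in 36, and lower at 4 d than at 3 d in 17. Only 13 members went lower at each step. By rank, the members were more alike between late days than between 1 d and 4 d. Across the 45, which share arrays and were selected on these values, Spearman's rho was 0.77 between 3 d and 4 d, 0.71 between 2 d and 4 d, and 0.28 between 1 d and 4 d. The limit of -0.5 lay closest to the values of 1 d, whose quartiles were -0.74 and -0.58, beside -1.25 and -0.78 at 4 d. A lower rho with 1 d can follow from the choice alone, and no conclusion is drawn from it.

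The size of the step between 1 d and 2 d changed with the centring of the arrays. By replicate the members' median was -0.21, -0.90 and -0.85 at 1 d and -0.91, -0.98 and -0.56 on day 2. It was -1.05, -1.11 and -1.19 on day 3 and -0.84, -1.15 and -0.97 on day 4. Replicate 1 was thus far above the other replicates of 1 d, was the highest of the 3 in 44 of the 45 members and lay above 0 in 8. On its Cy5 array 37 members stood above 0 after centring. In the same array's deposited values the members had a median of -0.89, against -0.92 and -0.72 on the other Cy5 arrays of 1 d. The complete probes had a deposited median of -0.18 there and the probes missing on some other array one of -3.56, so that the median over all probes, which centring removes, was -1.44.

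With each array centred on the complete probes, the replicates of 1 d came together. The members' median was then -0.76, -0.85 and -0.80 in replicates 1, 2 and 3, with a median M of -0.81 over the group. At the later days it was -0.90, -1.12 and -0.97 on days 2 to 4. All 45 members were below 0 in each of the 12 replicates of ASP days 1 to 4, compared with 35 under the main centring, where 8 were below 0 in 11 and the fewest was 10. M was lower at 2 d than at 1 d in 27 members in place of 39. Without replicate 1 of 1 d, under the main centring, the median M at 1 d was -0.89 and ranged from -1.24 to -0.55, with all 45 still at -0.5 or less. The drop from 3 h to 1 d was therefore as large or larger in each of these settings, while the further drop from 1 d to 2 d was smaller.

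Both dye orientations gave values below 0, but at 1 d they differed in size. Averaged over the arrays with treated RNA in Cy5 and over those with it in Cy3, members were below 0 in both orientations in 42, 45, 44 and 44 of 45 cases on days 1 to 4. An M of -0.5 or less in both orientations was less common, in 8, 33, 42 and 35 members. Medians with treated RNA in Cy5 and Cy3 were -0.28 and -0.98 at 1 d, the day of the outlying Cy5 array, and -1.04 and -1.14 at 3 d. With complete-probe centring they were -0.76 and -0.79 at 1 d, where 37 members reached -0.5 in both. After the dye effect of each probe was removed, 6 members were below 0 on all 23 ASP day arrays and none on fewer than 20.

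The member with the lowest mean, probe 1795538_1, had replicate values of 0.33, 0.08 and 0.07 at 3 h of ASP, then 0.01, -1.15 and -0.95 at 1 d. It went on to -1.30, -1.50 and -1.09 on day 2, then to -1.46, -1.85 and -1.85 on day 3, and to -1.43, -2.06 and -1.71 on the last day. Its M was -0.69, -1.45, -1.72 and -1.73 on the 4 days, so its lowest values lay at the end of the course. Replicate 1 of 1 d, the one touched by the outlying array, is the only value of the 4 days at or above 0, and it was -0.54 with complete-probe centring. Its mean of -1.40, or 2.64-fold lower, ranked 10 among all complete probes.

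Probe 1765149_1 stood above 0 at 3 h, with 0.20, 0.61 and 0.92, before it reached -0.18, -0.88 and -0.64 at 1 d. Its 3 replicates of 3 d lay at -1.84, -1.85 and -1.82, a spread (SD 0.01, n = 3) far below that of 4 d (-1.16, -1.85 and -1.75, SD 0.37). The M of -1.84 at 3 d was the lowest of any member on any day.

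Probe 1790687_1 had a narrow spread at 1 d, with replicates at -0.72, -0.93 and -0.81 (SD 0.10, n = 3). Its M was -0.82, -1.36, -1.81 and -1.43 over the 4 days. The replicates of 3 d (-1.52, -1.90 and -2.01) and of 4 d (-1.26, -1.13 and -1.90) overlapped. Probe 1776224_1 had an M of -1.53, -1.37 and -1.48 on days 2 to 4, but the mean over its replicates was -1.36, -1.37 and -1.48, so by that measure 2 d was not the lowest day. Its replicates of 4 d, -1.49, -1.45 and -1.50, nearly coincided.

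The other members named for a low mean had a mean M between -1.23 and -1.14 over the 4 days. Probes 1779275_1 and 1767484_1 were lowest at 4 d, with an M of -1.62 and -1.72. Probe 1767484_1 had the largest change within the course, from -0.53 at 1 d to -1.72 at 4 d. Its replicates at 4 d were -1.65, -1.54 and -1.98 and none overlapped those of 1 d (0.08, -0.87 and -0.81). Probe 1782718_1 was lowest at 3 d, where its replicates of -1.55, -1.64 and -1.60 had an SD of 0.04.

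In probe 1770298_1 1 replicate set the last day, with -2.43 against -1.13 and -1.22 at 4 d. Probe 1784462_1 was among the steadiest, with replicates between -1.34 and -1.16 at 2 d and between -1.47 and -1.39 at 3 d. Probe 1793981_1 had an M of -0.89 at 1 d and -1.30 at 4 d. The probe with the next number, 1793982_1, is also a member, with -0.61 and -1.04 at these times. Whether both come from 1 gene is not known from the numbers.

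In 7 members M was not lower at 4 d than at 1 d, and with complete-probe centring in 12. Only probe 1777537_1 had its lowest M at 1 d under the main centring, while 3 members did with complete-probe centring. The rise from 1 d to 4 d was greatest in probe 1796652_1, from -0.84 to -0.69. Its replicates of 4 d, -0.90, -0.95 and -0.23, overlapped those of 1 d, -0.62, -1.25 and -0.64. Probe 1779338_1 had the lowest M of all members at 1 d, -0.95, and stood at -0.79, -1.10 and -0.86 afterwards. Probes 1777537_1, 1779316_1 and 1796382_1 each moved by 0.07 between 1 d and 4 d. In probe 1779316_1 replicate 3 of 2 d, taken as the lone array, lay at 0.14 beside -1.45 and -1.30. Under the main centring the replicates of 1 d and 4 d overlapped in each of these members. With complete-probe centring those of probe 1779338_1 did not, at -1.10, -1.24 and -0.96 on day 1 and -0.85, -0.90 and -0.94 on day 4.

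Among the ASP days, the replicates differed most in probe 1772149_1, which was looked up after the values were seen. At 3 d its replicates were -1.35, -0.77 and -3.23 (SD 1.28, n = 3), and at 4 d -1.26, -1.19 and -0.15. Its M of -1.78 at 3 d therefore rests largely on 1 replicate.

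**Figure D2:**
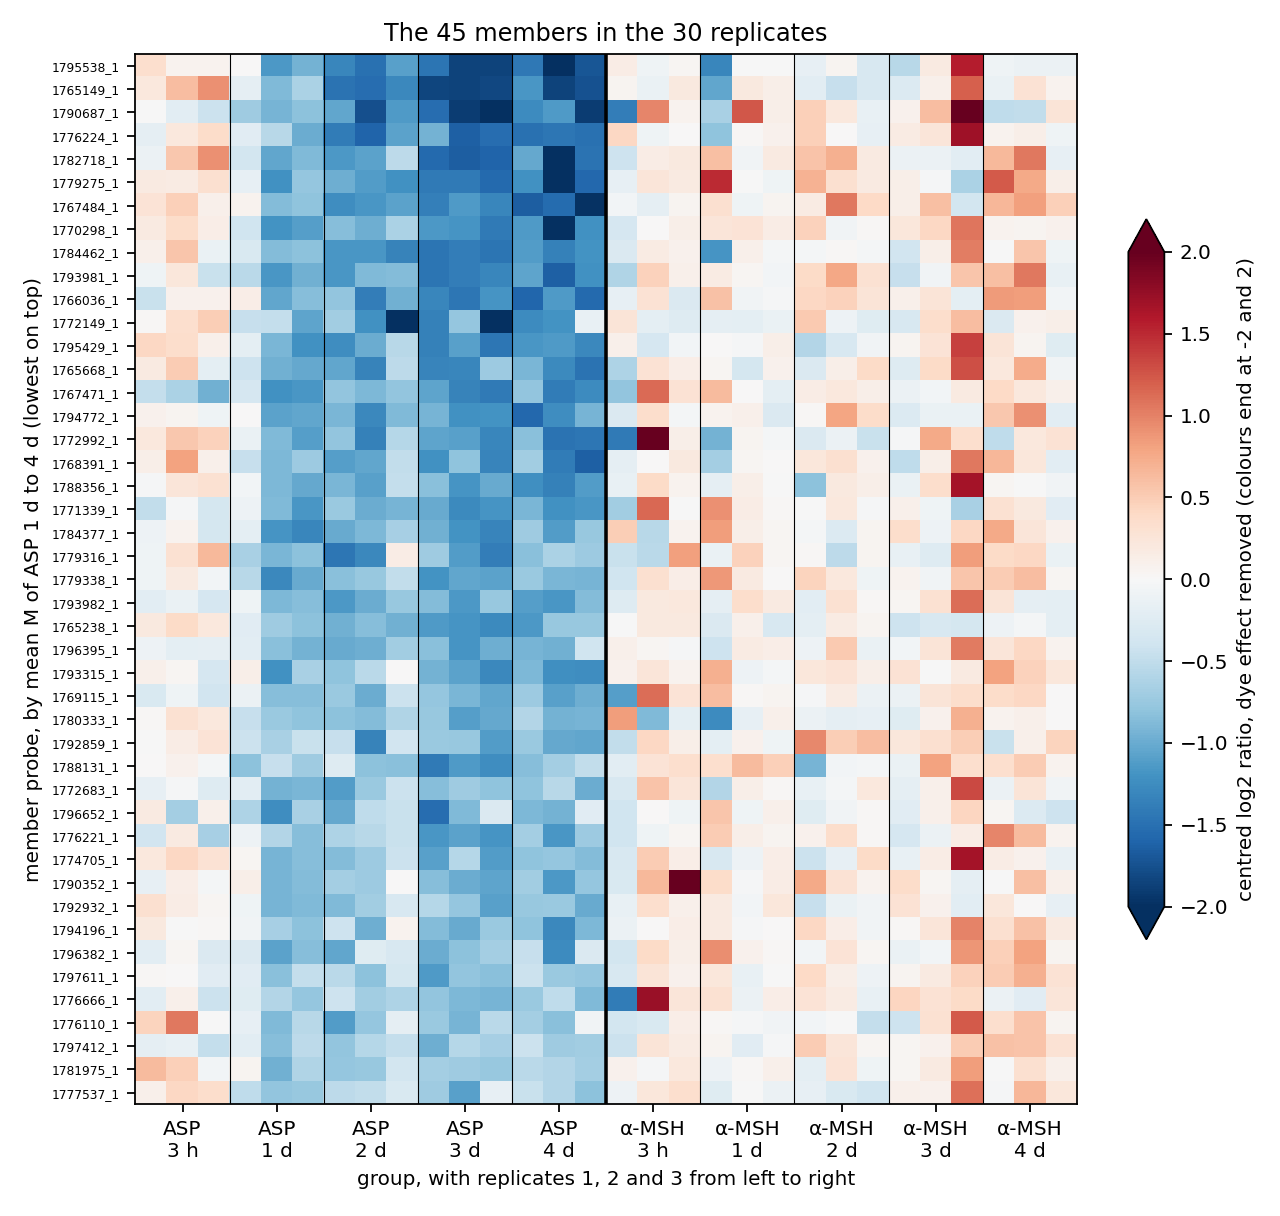
Centred log2 ratio, with the dye effect of each probe removed, of each of the 45 members (rows, lowest mean over ASP 1 d to 4 d on top) in the 30 replicates (columns, by group). Blue is lower and red higher in treated cells, and colours end at -2 and 2. The ASP columns of 1 d to 4 d are blue but for replicate 1 of 1 d, which is pale, and the red column at α-MSH 3 d is replicate 3.

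The members just inside the limit of -0.5 were probes 1781975_1 (-0.501 at 1 d), 1777537_1 (-0.505 at 2 d) and 1792859_1 (-0.508 at 1 d). Just outside it were probes 1783565_1, 1768438_1 and 1784736_1, with -0.498, -0.497 and -0.486 at 1 d. For the late α-MSH mean, the members nearest the limit were 1794196_1, 1767484_1 and 1765668_1 with 0.388, 0.387 and 0.385, and the nearest probes beyond it were 1780767_1, 1784341_1 and 1775775_1 with 0.401, 0.406 and 0.439. Probes on the 2 sides of each limit are thus not separate groups.

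At 3 h of ASP, a time whose ratios the choice did not use, the members showed no common direction. By replicate their median was 0.02, 0.16 and -0.01, beside 0.00, 0.17 and -0.10 for the complete probes. M ranged from -0.68 to 0.58, with 27 members above 0 and 18 below. All 3 replicates were above 0 in 14 members, or 31.1%, and below 0 in 8, or 17.8%, where the complete probes gave 19.9% and 16.4%. In limma, 0 of 45 members passed an adjusted p of 0.05 at 3 h of ASP, against 159 of 38302 probes tested (0.415%). At an unadjusted p under 0.05 there were 5 members, 4 of them above 0, or 11.1%, and the share over all probes tested was also 11.1%. The probes tested, here and under α-MSH, include those missing on some arrays, unlike the members. In a limma fit of the complete probes alone, 594 passed an adjusted p of 0.05 at 3 h of ASP, 0 of them members. In that fit 6 members had an unadjusted p under 0.05.

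The member with the lowest M at 3 h was probe 1767471_1, with replicates of -0.47, -0.63 and -0.96. Its mean of -0.68 (SE 0.23) had an adjusted p of 0.187 in limma, the smallest of any member. Over the alternatives that adjusted p ranged from 0.0555 to 0.873. Under ASP it stood at -0.90, -0.88, -1.27 and -1.15 on days 1 to 4, so it was the one member with an M of -0.4 or less at 3 h. The next lowest members, probes 1776221_1, 1771339_1 and 1797412_1, stood at -0.29, -0.29 and -0.28.

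Other members lay on the opposite side at 3 h. Probe 1765149_1, described above, had an M of 0.58 (SE 0.22, limma adjusted p = 0.289) and the highest value of the set. Probes 1776110_1, 1782718_1 and 1772992_1 followed with 0.50, 0.45 and 0.41. In probe 1776110_1 the replicates were 0.45, 1.06 and -0.01, and in probe 1782718_1 -0.12, 0.55 and 0.92, so 1 replicate of each lay near or below 0. In probe 1772992_1 all 3 were above 0, at 0.21, 0.55 and 0.47. The level at 3 h said little about the later one: across the 45 members, Spearman's rho between M at 3 h and the mean of 1 d to 4 d was -0.18, and -0.02 across the complete probes.

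**Figure D3:**
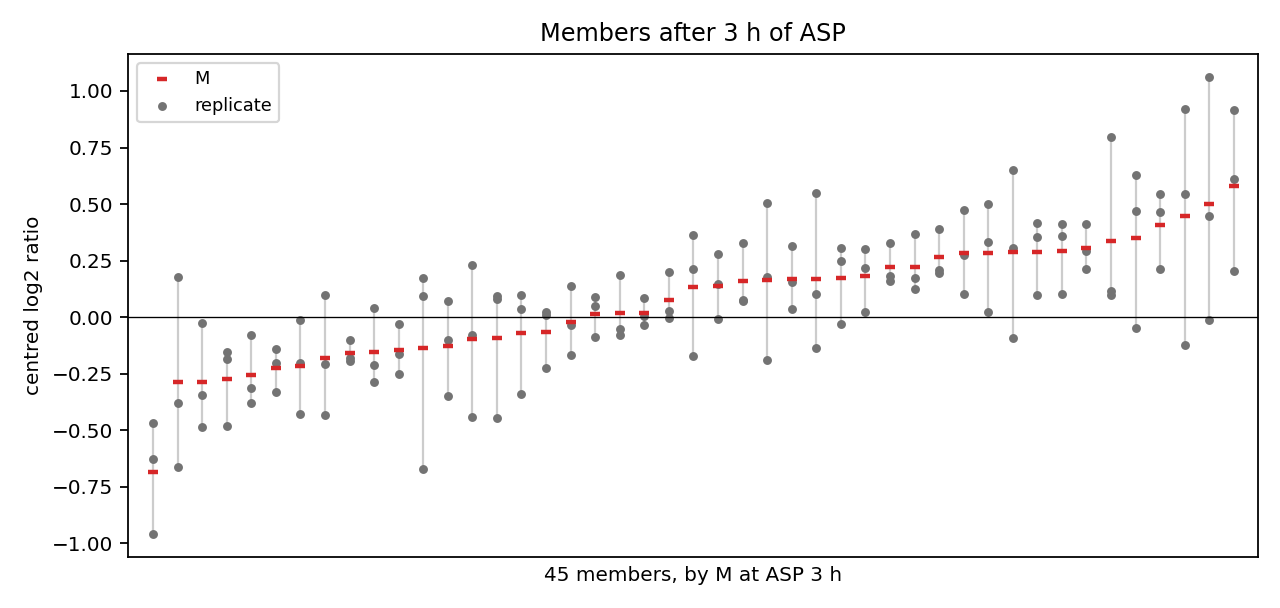
The 3 replicates (grey points, joined by a line) and M (red bars) of each of the 45 members after 3 h of ASP, ordered by M, as centred log2 ratios. M runs from -0.68 to 0.58, and 1 member lies well below the others.

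Under α-MSH the members stayed near 0 for 2 days. Their median M was 0.02, 0.05 and 0.07 at 3 h, 1 d and 2 d, where the complete probes had 0.04, 0.04 and 0.00. By replicate, the members' median was -0.29, 0.24 and 0.12 at 3 h. It was 0.06, 0.02 and 0.03 on day 1, and -0.01, 0.16 and 0.02 on day 2. At 3 h the replicates thus differed in sign, and with complete-probe centring the 3 values were -0.33, 0.25 and 0.03. By database number, replicate 1 of each α-MSH group falls in a first run of arrays, replicate 2 in another, and replicate 3 in this other run or, at 3 h and 1 d, in a later one.

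In limma 0 of 45 members passed an adjusted p of 0.05 at α-MSH 3 h, 1 d, 2 d or the mean of 1 d and 2 d, and among all probes tested the share was 0% each time. The members' share at an unadjusted p under 0.05 lay near that of all probes at 3 h and 1 d. It was higher at 2 d and for the mean of 1 d and 2 d, a difference that was not tested. At 3 h 1 member (2.22%) stood against 1.32% of all probes, and at 1 d 1 member (2.22%) against 2.07%. At 2 d there were 4 members (8.89%), all above 0, against 2.24%, and for the mean of 1 d and 2 d 5 members (11.1%), all above 0, against 2.49%.

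Members whose 3 replicates all lay on 1 side of 0 were counted as well. At α-MSH 3 h, 1 member (2.22%) was above 0 in all 3 replicates and 0 below, where the complete probes gave 10.7% and 2.95%. At 1 d the counts were 8 (17.8%) and 3 (6.67%), against 21.7% and 5.75%. At 2 d they were 13 (28.9%) and 8 (17.8%), against 15.1% and 11.1%.

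The 4 members with small unadjusted p-values at α-MSH 2 d were probes 1792859_1, 1767484_1, 1782718_1 and 1793981_1. Probe 1792859_1 had the highest M, 0.69, from replicates of 0.97, 0.49 and 0.61. Probe 1767484_1 stood at 0.54 from 0.16, 1.06 and 0.40, and probe 1782718_1 at 0.49 from 0.58, 0.72 and 0.18. Their adjusted p in limma was 1.0. All replicates of these members lay above 0 at 2 d, but at 1 d the same probes had an M of -0.06, 0.10, 0.24 and 0.05 in the order named first.

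By the mean of 1 d and 2 d, the highest member was probe 1779275_1 with 0.43, of which a single replicate of 1 d gave 1.50 beside -0.01 and -0.08. The lowest were probes 1772992_1, 1780333_1, 1795538_1 and 1765149_1, all between -0.30 and -0.29. In all 4 replicate 1 of 1 d was far lower than the others, at -0.94, -1.26, -1.31 and -1.04, while the other replicates of that day lay between -0.16 and 0.19. At 2 d all but probe 1795538_1 were below 0 in each replicate, as in probe 1765149_1 at -0.21, -0.46 and -0.33.

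At 3 h of α-MSH, probe 1790352_1 had an M of 0.89, the highest among the 18694 complete probes at that time. Its replicates were -0.31, 0.65 and 2.33, so 1 replicate set the value, and its adjusted p in limma was 1.0. In probe 1772992_1 the replicates of that group lay at -1.42, 2.08 and 0.12, and those of probe 1790687_1 at -1.38, 0.98 and 0.08. Their M of 0.26 and -0.11 thus averages replicates of opposite sign.

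Late under α-MSH, where the rule bounds the values, the members lay mostly above 0. Their median M was 0.23 on either day, and the mean of both days was above 0 in 42 members and below in 3. That mean was above 0 in 11922 of the 18694 complete probes. With complete-probe centring 36 members were above 0 and 9 below at 3 d, and 29 above and 16 below at 4 d. The complete probes had medians of 0.05 and 0.06. The rule allows either sign, but no probe with the ASP values of the members lay at -0.4 or less, so the members are the low end of the 89 probes and not their middle.

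At α-MSH 3 d the members' median by replicate was -0.06, 0.12 and 0.56, and at 4 d 0.26, 0.33 and 0.06. Replicate 3 of 3 d includes the array with a deposited median of -0.92, and the complete probes had a median of 0.21 in it. It was the highest of the 3 in 33 members, and 16 members had a value of 1 or more in it. With complete-probe centring the members' median in it was 0.33, beside 0.00 and 0.14. Without it the members' median was 0.07 at 3 d and 0.13 over both late times. Then 44 of the 45 members and 10 of the 44 other probes lay within the limit of 0.4. Membership of the probes near that limit therefore turns on 1 replicate.

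The late α-MSH values of single members often differed between 3 d and 4 d. In 9 members M was 0.4 or more at 3 d and below 0.1 at 4 d, and in 6 it was 0.4 or more at 4 d and below 0.1 at 3 d. Of the first kind, probe 1790687_1 had 0.90 and -0.25, with replicates of 0.09, 0.61 and 1.99 at 3 d, and probe 1776224_1 had 0.70 and 0.03, with 0.17, 0.24 and 1.69 at 3 d. These high values came mainly from replicate 3. Over replicates 1 and 2 alone the 9 members lay between -0.18 and 0.35 at 3 d, so 0 of them were left without replicate 3, while 5 of the 6 of the opposite kind were.

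Of the second kind, probe 1782718_1 had -0.15 and 0.51, with replicates of 0.65, 1.05 and -0.17 at 4 d, and probe 1779275_1 had -0.18 and 0.70, with 1.22, 0.76 and 0.11. Probes 1782718_1 and 1779275_1 were also high at 2 d, with 0.49 and 0.40. Across the 45 members, Spearman's rho between α-MSH 2 d and 4 d was 0.50, compared with 0.39 across the complete probes, and that between 2 d and 3 d was -0.37. Members share arrays, and the bound on the sum of 3 d and 4 d sets these days against each other, so the values are a description.

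**Figure D4:**
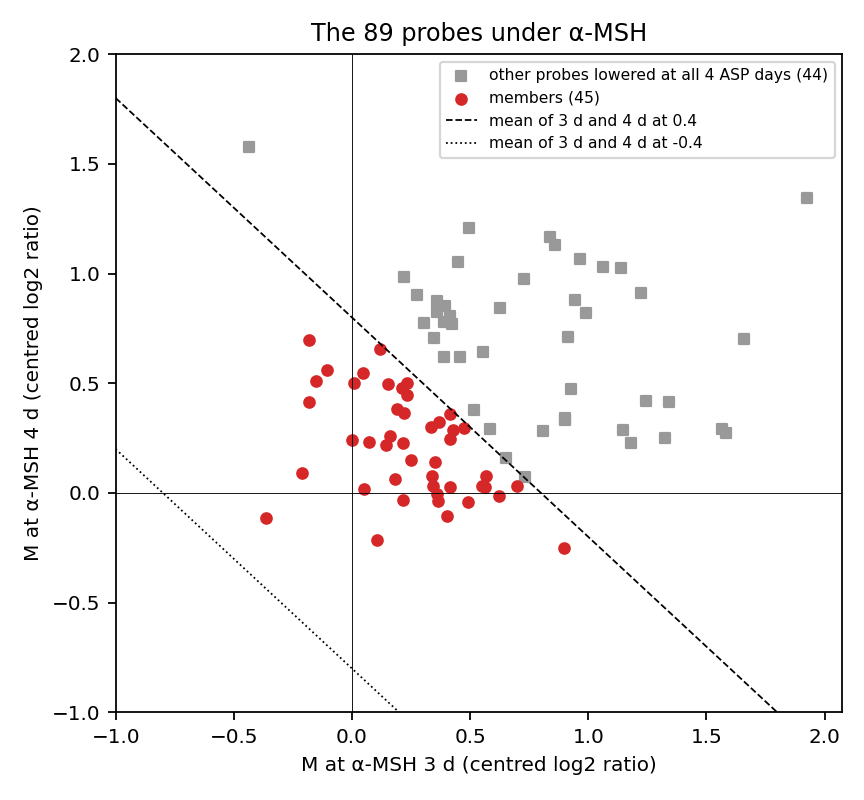
M at α-MSH 3 d (horizontal axis) and 4 d (vertical axis), as centred log2 ratios, of the 45 members (red circles) and the 44 other probes that met the ASP criterion (grey squares). The dashed and dotted lines mark a mean of 0.4 and -0.4 over both days. All 44 other probes lie beyond the dashed line, and none beyond the dotted one.

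The 44 probes that met the ASP criterion but exceeded the α-MSH limit were the nearest comparison. Their median M under ASP was -0.79, -0.98, -1.40 and -1.22 on days 1 to 4, so they reached somewhat lower values than the members, with ranges that overlapped on every day. At ASP 3 h both sets lay close together, with a median of 0.11 for the 44 and 0.13 for the members. At α-MSH 3 h the medians were 0.04 and 0.02.

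The sets differed most, among the times whose ratios the rule left out, at α-MSH 2 d. There the median M was 0.38 for the 44 and 0.07 for the members. All 3 replicates were above 0 in 28 of 44 (63.6%) and in 13 of 45 (28.9%), against 15.1% of the complete probes. At 1 d the medians were 0.21 and 0.05. These sets were divided by the α-MSH values of the following days, and the difference between them was not tested.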

How the data were processed

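RNA from treated and from untreated cells was labelled indirectly with Cy3 and Cy5 and hybridised together, per the labels' protocols. The deposited values are log ratios, taken as log2 (base, centring and numerator are not stated). How the authors scanned, filtered and normalized the arrays is not given here. Each array was centred on its median. For tests, the dye effect of each probe per drug was removed, the arrays of a pair were averaged, and 30 replicates entered 1 fit (limma 3.58.1, R 4.3.3, lmFit and eBayes) with Benjamini-Hochberg adjustment over all probes with at least 2 replicates. Scripts were tested on simulated data. The members and all lists were chosen with earlier results of these data known. Probes were named if they were the 10 lowest by mean, the 5 most extreme each way by change from 1 d to 4 d, the 4 most extreme each way at ASP 3 h and at α-MSH 1 d and 2 d, or the 3 nearest a limit. Others were looked up after their values were seen, among them those with an unadjusted p under 0.05. Gene lists could not be applied to probe numbers. Alternatives changed centring, dye correction, pairing, unit of the fit, probes, thresholds and replicates.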

Additional observations from a re-analysis of the deposited data

Results flagged for a closer look

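Among the 6 arrays of ASP 1 d, the members' median after centring and dye correction was 0.33 on the Cy5 array of replicate 1 and at or below -0.70 on the others, farther from its nearest neighbour than Dixon's 95% limit allows. The same check left the Cy5 array of α-MSH 3 d replicate 3 unmarked. Of the 10 groups examined, chance marks about 1 in 20. In deposited values the members' median on this array was -0.89, and relative to the complete probes it was -0.71, against -0.88 and -0.66 on the other Cy5 arrays of that group.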

How the results depend on the processing

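The number of members depended on the processing. In place of 45 it was 86 without centring (44 of them shared), 87 with arrays centred on the complete probes (44 shared), 83 with dye bias removed by loess (43 shared) and 83 with medians over the arrays of an orientation (42 shared). A limit of -0.4 gave 83 and one of -0.6 gave 28. With a replicate number left out of every group it was 82, 27 and 39 without replicates 1, 2 and 3, and only 28, 20 and 29 of the 45 were shared. It was 90 (45 shared) without ASP 1 d replicate 1 alone, 54 (44 shared) without α-MSH 3 d replicate 3 alone and 106 (44 shared) without both. These last 3 settings and the complete-probe centring were added after the data were seen.

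The members' median at α-MSH 1 d, 0.05, was 0.02 without centring (0.0197), with complete-probe centring (0.0187) and with loess (0.0179), and ranged from 0.0232 to 0.0745 with 1 replicate left out. The medians at the other 4 contrasts moved by less than the SD of their replicates. In 63 alternative limma fits 0 members were called, with between 0 and 8 at an unadjusted p under 0.05 and a smallest adjusted p of 0.0555. Pair numbers as a replicate block gave 0 calls in each contrast, with 4, 1, 2, 6 and 4 at an unadjusted p under 0.05. Same-numbered replicates deviated together little: 60 correlations of their deviations ranged from -0.294 to 0.293, with a median of 0.037. By number the median was highest for replicate 1, at 0.091 under ASP and 0.072 under α-MSH. The cause of these changes was not tested.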
